A study of Mus musculus with 9 samples.

Results

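Caveolae are small flask-shaped pits of the plasma membrane, and fat cells carry very many of them. The genes described here encode their coat: the caveolins Cav1 and Cav2, the cavins Cavin1 (older symbol Ptrf), Cavin2 (Sdpr) and Cavin3 (Prkcdbp), and the neck protein Ehd2. They were taken by gene symbol from the annotation of the arrays, and all 6 were measured, out of 18193 genes. Together they had 15 probe sets, and a gene is represented by its probe set of highest mean over all arrays, with the others given as a check.

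Caveolins are membrane-embedded scaffold proteins that bind cholesterol and assemble into oligomers, and cavins are soluble proteins that join them from the cytosol to complete the coat. Cav1 and Cavin1 are both required for caveolae outside striated muscle, and loss of either gene leads to lipodystrophy in mice and humans. In fat cells caveolae have been linked to fatty acid uptake, insulin receptor signalling and the buffering of membrane tension as cells fill with lipid.

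The cells were 3T3-L1, a mouse fibroblast line that differentiates into adipocytes in culture, with 3 arrays in each of 3 groups. Preadipocytes were undifferentiated cells. Control siRNA adipocytes were induced for 2 days with insulin (10 µg/ml), dexamethasone (1 µM) and the phosphodiesterase inhibitor IBMX (0.5 mM), kept in insulin alone for 2 more days, and electroporated at day 14 with a non-targeting oligonucleotide. PPAR gamma siRNA adipocytes were treated likewise, with an siRNA to Pparg, which encodes the master transcription factor of fat cell formation. The siRNA amount is given as 2 or 3 nmol, not array by array, and the labels used here do not state how long after electroporation RNA was taken. Preadipocytes are described with neither hormones nor electroporation, so these cannot be told apart from differentiation. Replicates are described as technical, so each p-value speaks only of the spread between arrays, not between separate cultures.

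Values are log2 probe set summaries, and a level on one probe set cannot be set against that on another. Changes are log2 differences between group means ± SE from 1 limma fit over the 9 arrays. Differentiation stands for control siRNA adipocytes against preadipocytes, and between the siRNAs for PPAR gamma siRNA against control siRNA adipocytes. A gene was called at a Benjamini-Hochberg adjusted p under 0.05 over 45037 probe sets. Pparg, the siRNA target, stood at 8.35, 8.20 and 8.12 in preadipocytes, 12.89, 12.82 and 12.65 with control siRNA, and 9.54, 9.58 and 9.64 with PPAR gamma siRNA. Its groups did not overlap, in the order the labels imply.

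The labels were also set against marker genes. The mean level of 5 measured adipocyte markers of 6 lay between 6.06 and 6.10 in preadipocyte arrays, between 13.69 and 13.73 with control siRNA and between 10.77 and 10.89 with PPAR gamma siRNA. That of 5 measured preadipocyte markers of 6 lay between 10.13 and 10.23, between 7.49 and 7.71 and between 9.0 and 9.48 in the same order. Endothelial cells and muscle are also rich in caveolae: the mean of 7 endothelial markers stayed between 3.64 and 3.98 on all arrays, under the lowest array median of 4.82. Of the 7, Kdr stood highest, at group means of 4.78, 5.25 and 5.35. It was called higher in differentiation (0.47) and in PPAR gamma siRNA adipocytes against preadipocytes (0.57), and the others passed in none of the comparisons. The mean of 5 skeletal muscle markers lay between 4.65 and 4.91 on all arrays, but its genes moved apart. In differentiation Actn3 was called lower (-1.38), and Ckm (0.95) and Myod1 (0.41) higher. Between the siRNAs Actn3 was called higher (0.54). Cav3 and Myog passed in none of the comparisons. The mean of 6 macrophage markers moved with the groups, from 4.23 to 4.27, from 4.59 to 4.65 and from 4.69 to 4.99. Cd68, a lysosomal protein abundant in macrophages, was called higher in all 3 comparisons, at 4.01 ± 0.11, 5.36 ± 0.06 and 6.56 ± 0.59 (SD, n = 3), Adgre1 was called higher in differentiation alone (0.43), and Ptprc, Csf1r, Lyz2 and Itgam passed in none. The part of macrophage marker genes in the values of the caveola genes was not tested. The mean of 5 smooth muscle markers, which fibroblasts share in part, lay between 6.77 and 6.84, between 6.39 and 6.64 and between 7.06 and 7.29 in the 3 groups. These genes also moved apart: in differentiation Acta2 (-3.27) and Tagln (-1.22) were called lower, and Des (2.41) and Myh11 (0.53) higher. Between the siRNAs Acta2, Tagln and Myh11 were called higher and Des lower. Cnn1 passed in none of the comparisons. The summed RNA of a culture cannot separate fewer adipocytes from less RNA per adipocyte.

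In differentiation, 5 of the 6 genes rose and 1 fell by their brightest probe sets, where 27.1% of all genes were called higher and 24.7% lower. With the mean of a gene's probe sets in place of the brightest, 3 rose and 2 fell. Cavin2 rose most of the 6, 6.31-fold, followed by Cav2 at 4.35-fold and Cav1 at 2.38-fold, while Cavin3 fell. With PPAR gamma siRNA, Cav1, Cav2 and Cavin2 fell and Cavin3 rose, where 16.1% of all genes were called lower and 19.9% higher, and Cavin1 and Ehd2 did not pass the test. Arrays of the groups did not overlap for any of the 6 genes in differentiation (34% of all genes without overlap and higher, 27.5% lower), nor for the 4 called genes between the siRNAs (23.4% higher, 21% lower). By the brightest probe sets the median change of the 6 was 0.96 in differentiation, against 0.09 over all genes, and -0.62 between the siRNAs, against -0.01. Both comparisons share the control siRNA arrays, so their values are not independent.

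**Figure D1:**
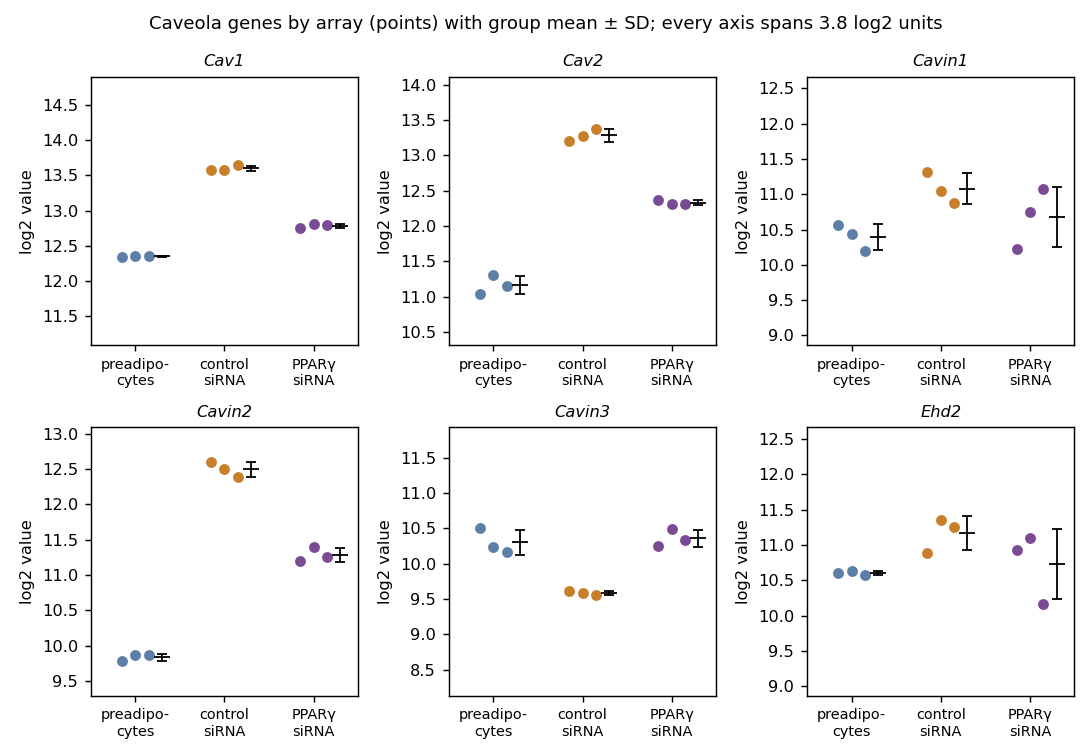
The log2 value of each caveola gene on each array (points, 3 per group) with the group mean ± SD (bars), on axes of equal span. Cav1, Cav2 and Cavin2 are highest with control siRNA and between the other groups with PPAR gamma siRNA. Cavin3 is lowest with control siRNA, and its preadipocyte and PPAR gamma siRNA arrays overlap. Cavin1 and Ehd2 scatter widely with PPAR gamma siRNA.

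Cav1, the caveolin without which the coat does not form in fat cells, stood at 12.34, 12.35 and 12.36 in preadipocytes. It was at 13.58, 13.58 and 13.64 with control siRNA and at 12.75, 12.81 and 12.79 with PPAR gamma siRNA. Every control siRNA array was above every PPAR gamma siRNA array, and these were above every preadipocyte array. Cav1 rose by 1.25 ± 0.07 in differentiation (limma adjusted p = 5.45e-08) and changed by -0.81 ± 0.07 with PPAR gamma siRNA against control siRNA, which is 1.76-fold lower (adjusted p = 5.49e-06). With PPAR gamma siRNA it was still 1.35-fold higher than in preadipocytes (0.43 ± 0.07, adjusted p = 0.000811). The gene had a single probe set, so no other probe set checks it.

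Cav2 encodes a caveolin that reaches the cell surface in oligomers with Cav1. It stood at 11.04, 11.30 and 11.15 in preadipocytes, 13.20, 13.27 and 13.38 with control siRNA, and 12.37, 12.31 and 12.31 with PPAR gamma siRNA. The 3 groups did not overlap and had the same order as for Cav1. Cav2 rose by 2.12 ± 0.09 in differentiation (adjusted p = 3.72e-09) and was 1.94-fold lower with PPAR gamma siRNA than with control siRNA (log2 change -0.95 ± 0.09, adjusted p = 8.3e-06). That level was 1.16 ± 0.09 above preadipocytes (adjusted p = 1.92e-06). A dimmer Cav2 probe set, at 5.81 ± 0.08, 7.27 ± 0.16 and 6.11 ± 0.11 (SD, n = 3) in the 3 groups, gave 1.46 ± 0.10 and -1.16 ± 0.10 in the 2 comparisons. By this probe set the level with PPAR gamma siRNA was nearer that of preadipocytes, at a difference of 0.30 ± 0.10 (adjusted p = 0.0454). In the reference annotation Cav2 and Cav1 are neighbours on chromosome 6, on the same strand, with 0 annotated genes between them.

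Cavin2 encodes a phosphatidylserine-binding cavin that curves membranes and helps to recruit Cavin1 to caveolae. It stood at 9.78, 9.86 and 9.87 in preadipocytes, 12.60, 12.50 and 12.39 with control siRNA, and 11.20, 11.40 and 11.26 with PPAR gamma siRNA. As for the caveolins, the groups did not overlap and the PPAR gamma siRNA arrays lay between the others. The change was 2.66 ± 0.09 in differentiation (adjusted p = 5.18e-10) and -1.21 ± 0.09 between the siRNAs, 2.31-fold lower (adjusted p = 1.09e-06). Its differentiation change was above those of 98.2% of all genes. Cavin2 stayed 2.74-fold above preadipocytes with PPAR gamma siRNA (adjusted p = 2.86e-07). Both other Cavin2 probe sets gave the same signs, with changes of 2.87 ± 0.11 and 2.31 ± 0.11 in differentiation and of -1.28 ± 0.11 and -1.18 ± 0.11 between the siRNAs.

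The promoters of these 3 genes are shown because the genes moved together in both comparisons. Each run is the 250 bases before the annotated start, from RefSeq on build GRCm38.p6, read 5′ to 3′ on the plus strand, the strand of all 3 genes. Capitals mark matches, on either strand and wholly within these bases, to any of the motifs named after them. Cav1 has a further annotated start, whose promoter holds no match and is not printed.
Cav1, chr6:17306085-17306334: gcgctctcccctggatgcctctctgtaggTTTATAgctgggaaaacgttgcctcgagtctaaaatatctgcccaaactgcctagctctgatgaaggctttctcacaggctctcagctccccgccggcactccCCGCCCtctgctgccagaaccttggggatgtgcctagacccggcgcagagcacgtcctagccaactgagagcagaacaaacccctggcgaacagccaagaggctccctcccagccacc
Cav2, chr6:17280935-17281184: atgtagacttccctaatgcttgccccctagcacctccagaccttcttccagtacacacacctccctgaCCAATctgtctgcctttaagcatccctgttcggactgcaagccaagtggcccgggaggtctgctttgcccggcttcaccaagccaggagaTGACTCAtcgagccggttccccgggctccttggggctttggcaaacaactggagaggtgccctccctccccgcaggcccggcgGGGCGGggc
Cavin2, chr1:51288876-51289125: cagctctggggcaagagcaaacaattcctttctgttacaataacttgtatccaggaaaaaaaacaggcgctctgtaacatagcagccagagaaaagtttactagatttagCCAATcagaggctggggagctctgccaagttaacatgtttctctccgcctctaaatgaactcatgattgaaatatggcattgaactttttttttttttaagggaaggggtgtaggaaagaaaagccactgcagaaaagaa

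The letters searched were AGGTCA (the unit bound by nuclear receptors), DR1 (that unit repeated in the same direction after 1 base, the element bound by PPAR gamma with RXR), GGGCGG (the GC box) and the box named CCAAT. Also searched were the TATA box as TATAAA, the core of hypoxia response elements as GCGTG, and the AP-1 site as TGACTCA. Windows ran from 250 bases before a start to 50 after it, on both strands, and matches of different motifs could overlap. The reference held 7 windows for 5 of the 6 genes, all but Cavin3. Neither AGGTCA nor DR1 was found in any of the 7, where 16.3% and 0.0396% of all 32851 windows hold them. The GC box was found in 4 of the 5 genes and 5 of the 7 windows (35.7% of all windows). CCAAT was also found in 4 of the 5 genes and 5 of the 7 windows (37.4%). Both counts include the 2 Cavin1 windows, which overlap almost wholly. Cav2 alone of the 5 had TGACTCA, at bases -92 to -86 from its start (5.2% of all windows). Cav1 alone had TATAAA, on the reverse strand at -221 to -216 (13.6%), and Ehd2 alone had GCGTG (32.4%). Cavin2 had CCAAT at -140 to -136 and no GC box, and its upstream bases were 40.4% G and C, against 59.6% for Cav1 and 62.0% for Cav2. A match is a description of these letters and not of binding, and none was tested.

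Cavin3 moved against Cav1, Cav2 and Cavin2. It encodes a protein kinase C delta binding cavin that joins the coat through Cavin1. It stood at 10.50, 10.24 and 10.17 in preadipocytes, 9.61, 9.58 and 9.56 with control siRNA, and 10.25, 10.49 and 10.34 with PPAR gamma siRNA. The control siRNA arrays were below all others, and the preadipocyte and PPAR gamma siRNA arrays overlapped. Cavin3 fell by 0.72 on the log2 scale in differentiation (SE 0.10, adjusted p = 0.000116) and rose by 0.78 ± 0.10 with PPAR gamma siRNA against control siRNA, 1.72-fold (adjusted p = 0.000117). Against preadipocytes its level with PPAR gamma siRNA differed by 0.06 ± 0.10, with a 95% confidence interval from -0.17 to 0.29 (adjusted p = 0.732). The gene had 1 probe set.

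Cavin1, the cavin that every caveola needs, rose on the probe set of highest mean, but its probe sets disagreed in sign. That probe set read 10.56, 10.44 and 10.20 in preadipocytes, 11.32, 11.04 and 10.88 with control siRNA, and 10.23, 10.75 and 11.07 with PPAR gamma siRNA. The control siRNA arrays lay above the preadipocytes, and the PPAR gamma siRNA arrays spread across both groups. The change was 0.68 ± 0.19 in differentiation (adjusted p = 0.0122), and it differed by -0.40 ± 0.19 between the siRNAs, with an interval from -0.81 to 0.02 (adjusted p = 0.164). Against preadipocytes, PPAR gamma siRNA arrays differed by 0.28 ± 0.19 (adjusted p = 0.307). Single arrays decided these calls: the rise in differentiation no longer passed without preadipocytes 3 (0.58 ± 0.21, adjusted p = 0.054) or control siRNA 1 (0.56 ± 0.21, adjusted p = 0.0507). Without PPAR gamma siRNA 3 the difference between the siRNAs passed (-0.59 ± 0.18, adjusted p = 0.0315), and without PPAR gamma siRNA 1 that from preadipocytes did (0.51 ± 0.16, adjusted p = 0.0368).

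The next Cavin1 probe set by level ran the opposite way, at 7.31, 7.49 and 7.46 in preadipocytes, 6.37, 6.21 and 6.01 with control siRNA, and 7.16, 7.02 and 6.92 with PPAR gamma siRNA. None of its groups overlapped, and it fell in differentiation (-1.23 ± 0.11, adjusted p = 1.99e-06) and rose between the siRNAs (0.84 ± 0.11, adjusted p = 0.000102). The dimmest fell in differentiation by 1.65 on the log2 scale (SE 0.40, adjusted p = 0.0052) with control siRNA values of 5.43, 7.17 and 6.94, and did not pass between the siRNAs (-0.63 ± 0.40, adjusted p = 0.309). With the mean of its 3 probe sets Cavin1 changed by -0.73 ± 0.13 in differentiation, the opposite sign to the brightest probe set. Which transcripts or parts of the gene the probe sets read was not analysed here.

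Ehd2 encodes an ATPase that rings the neck of the caveola and holds it at the membrane. Its brightest probe set read 10.61, 10.63 and 10.58 in preadipocytes, 10.89, 11.36 and 11.26 with control siRNA, and 10.93, 11.10 and 10.17 with PPAR gamma siRNA. The control siRNA arrays lay above the preadipocytes, while PPAR gamma siRNA array 3 lay below every other array. The change of 0.56 ± 0.20 in differentiation passed the test narrowly (adjusted p = 0.0438). That call ended in 7 of the 19 other settings run, 5 of them the omission of preadipocytes 1, 2 or 3 or control siRNA 2 or 3, with an adjusted p of up to 0.143 over the omissions. Between the siRNAs Ehd2 differed by -0.43 ± 0.20, with an interval from -0.88 to 0.02 (adjusted p = 0.159), and by -0.15 ± 0.14 without PPAR gamma siRNA array 3 (adjusted p = 0.511). Against preadipocytes PPAR gamma siRNA arrays differed by 0.13 ± 0.20 (adjusted p = 0.692), and by 0.41 ± 0.14 without PPAR gamma siRNA array 3 (adjusted p = 0.0442).

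The other Ehd2 probe sets did not share a direction. In differentiation the next in level fell by 0.40 on the log2 scale (SE 0.15, adjusted p = 0.0422). The following one rose by 0.48 ± 0.14 (adjusted p = 0.0151), and the dimmest 2 did not pass (-0.29 ± 0.24 and 0.15 ± 0.10). The dimmest of all lay between 2.60 and 3.00 on all arrays, close to the lowest value of any probe set, 2.41. None of the 5 passed between the siRNAs or between PPAR gamma siRNA and preadipocytes, where the smallest adjusted p were 0.0923 and 0.088.

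**Figure D2:**
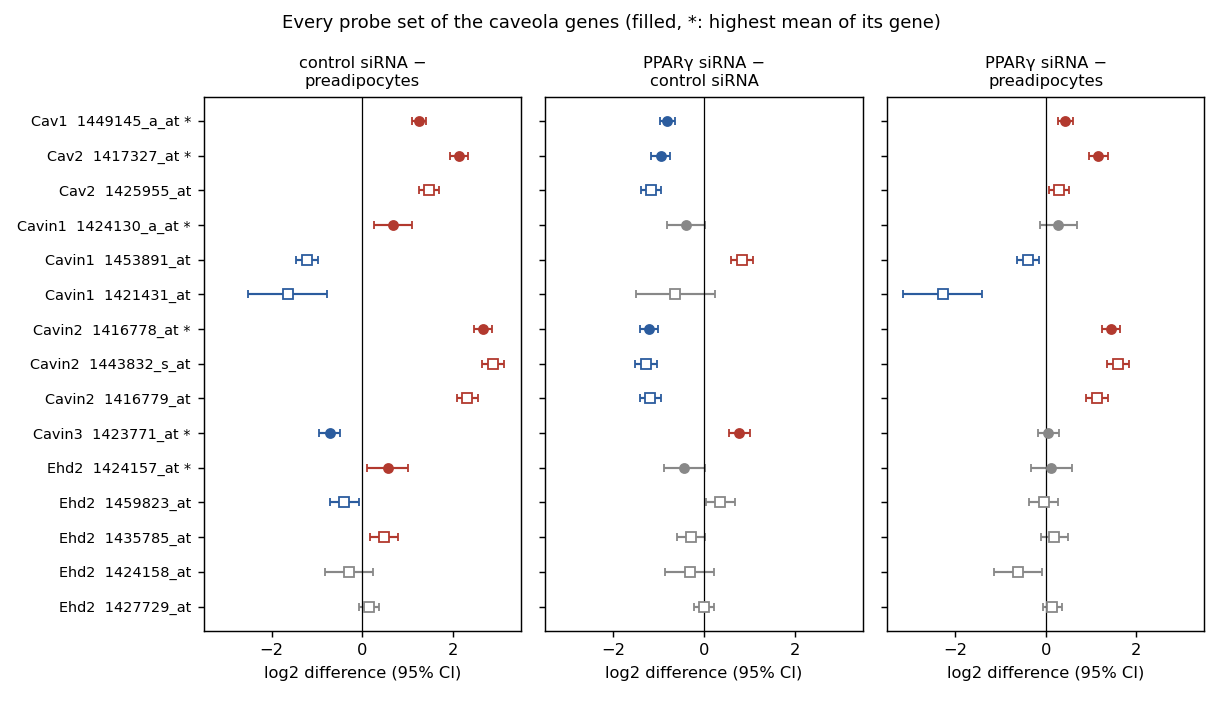
Log2 differences with 95% confidence intervals for each of the 15 probe sets in the 3 comparisons (red called higher, blue called lower, grey did not pass; filled circles and asterisks mark the probe set of highest mean). Probe sets of Cav2 and of Cavin2 agree in sign, whereas those of Cavin1 run from -1.65 to 0.68 and those of Ehd2 from -0.40 to 0.56 in differentiation.

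A sign of RNA integrity, the difference between the 3' and 5' control probe sets of Actb, differed between the groups. It was 0.23 to 0.36 in preadipocytes, 0.91 to 1.30 with control siRNA and 0.54 to 1.25 with PPAR gamma siRNA, whereas Gapdh gave -0.19 to 0.11. The highest adipocyte values, 1.30 and 1.25, belonged to control siRNA array 1 and PPAR gamma siRNA array 3. In both adipocyte groups that array held the highest Cavin1 value (11.32 and 11.07) and the lowest Ehd2 value (10.89 and 10.17) of its group. Elsewhere the values did not run that way: in preadipocytes the Actb differences of 0.23, 0.31 and 0.36 went with Cavin1 values of 10.56, 10.44 and 10.20, and the Ehd2 group means were higher, not lower, in control siRNA adipocytes than in preadipocytes. With the Actb difference as a covariate, Cavin1 changed by 0.10 ± 0.25 in differentiation (adjusted p = 0.796). Ehd2 changed by 1.43 ± 0.15 in differentiation and -0.73 ± 0.10 between the siRNAs (adjusted p = 0.00013). Preadipocytes and adipocytes do not overlap in this difference, so that fit extrapolates between them, and its part in the Cavin1 and Ehd2 values was not tested further. Cav1, Cav2, Cavin2 and Cavin3 kept their calls in differentiation and between the siRNAs in this fit and without those 2 arrays. Without them the changes between the siRNAs were -0.83 ± 0.09, -0.99 ± 0.11, -1.14 ± 0.11 and 0.80 ± 0.13.

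**Figure D3:**
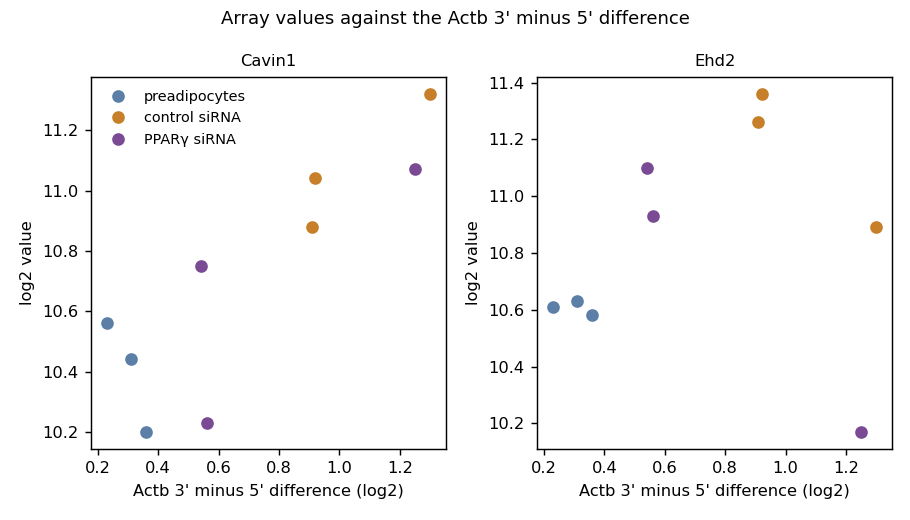
Log2 values of the brightest Cavin1 and Ehd2 probe sets on the 9 arrays (vertical axes) against the Actb 3' minus 5' difference of the array (horizontal axes), coloured by group. Among adipocyte arrays, the 2 at 1.25 and 1.30 hold the highest Cavin1 and the lowest Ehd2 value of their groups.

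PPAR gamma siRNA adipocytes were set against preadipocytes to ask whether the coat genes differed from the undifferentiated state. By their brightest probe sets 3 of the 6 remained higher and 0 were lower, where 19.6% of all genes were called higher and 16.9% lower. The 3 were Cavin2 (1.45 ± 0.09), Cav2 (1.16 ± 0.09) and Cav1 (0.43 ± 0.07), whose arrays did not overlap with those of preadipocytes, as for 28.8% of all genes in that direction and 21.1% in the other. At an unadjusted p under 0.05 no further member was higher or lower by its brightest probe set. Cavin3, Cavin1 and Ehd2 did not pass by these probe sets, with intervals from -0.17 to 0.29, -0.13 to 0.70 and -0.32 to 0.58. Both other Cavin1 probe sets were called lower than in preadipocytes (-0.39 ± 0.11 and -2.27 ± 0.40, limma adjusted p = 0.0192 and 0.000953). With the mean of its probe sets Cavin1 was also called lower (-0.79 ± 0.13, limma adjusted p = 0.000575).

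Each member was also set against Cav1 within the same array. In differentiation the change of Cavin2 exceeded that of Cav1 by 1.41 and that of Cav2 exceeded it by 0.87, while Cavin3 lay 1.97 below (difference -1.97). Between the siRNAs the differences to Cav1 were -0.39 for Cavin2, -0.14 for Cav2 and 1.59 for Cavin3. For Cavin1 and Ehd2 the differences in differentiation were -0.57 and -0.69. Each of these 8 differences separated the arrays of the groups completely, although that of Cav2 between the siRNAs did so narrowly. Their two-sided exact permutation p was 0.1, the smallest that 3 arrays against 3 allow, and 0.136 after adjustment over the 15 pairs and comparisons tested. Cavin1 and Ehd2 differed from Cav1 by 0.42 and 0.38 between the siRNAs (exact permutation p = 0.2 and 0.3). Against preadipocytes the differences to Cav1 were 1.02 for Cavin2, 0.73 for Cav2 and -0.38 for Cavin3 (exact permutation p = 0.1 each), and -0.15 for Cavin1 and -0.31 for Ehd2 (exact permutation p = 0.7 and 0.4).

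Genes whose 9 array values ran most nearly parallel were searched for the 3 members whose group means spanned at least 1 log2 unit. The measure was the root mean square difference after each gene was centred on its own mean. Nearest to Cav1 were Ndufa9 (0.039), Mrps12 (0.0525) and Ndufb2 (0.0537). Nearest to Cav2 were Gnb5 (0.0841), Mcee (0.0867) and Ndufaf1 (0.0869), and nearest to Cavin2 were Mmut (0.0682), Osgepl1 (0.0927) and Mdh1 (0.123). Pearson correlations over the 9 arrays were 0.995 to 0.998 for these 9 genes, which mostly restates the 3 group means that the arrays share.

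Of 12 measured accessory genes, whose proteins work with the coat, 0 rose and 8 fell in differentiation (median -0.43), and 6 rose and 1 fell with PPAR gamma siRNA (median 0.38). Over all genes, 27.1% rose and 24.7% fell in differentiation, and 19.9% rose and 16.1% fell between the siRNAs. The number that rose in differentiation by limma was also 0 at an unadjusted p under 0.05, and 1 with quantile normalisation or with probe sets averaged. Among the genes that fell in differentiation were Ror1, a receptor that scaffolds Cavin1 and Cav1 (-3.92 ± 0.15), the kinases Fyn (-2.84 ± 0.11) and Src (-2.00 ± 0.22), which phosphorylate Cav1, and Ehbp1, an EHD-binding protein (-2.00 ± 0.09). With PPAR gamma siRNA, Ror1 rose by 2.48 ± 0.15, Ehbp1 by 1.62 ± 0.09 and Fyn by 1.15 ± 0.11. The limma adjusted p of these 7 changes was at most 1.07e-05.

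The relatives of Ehd2, which work on recycling endosomes as well, each had a course of their own. Ehd3 changed by -0.83 ± 0.14 in differentiation and rose by 1.79 ± 0.14 between the siRNAs, and Ehd1 changed by -0.22 ± 0.08 and -0.61 ± 0.08. Ehd4 fell in differentiation (-0.53 ± 0.14) and did not pass between the siRNAs (0.28 ± 0.14, adjusted p = 0.194). The muscle forms Cav3 and Cavin4 stood at group means of at most 4.53 and 3.88, and passed in none of the comparisons. Pacsin2, a membrane-curving protein of caveolae, was not analysed here.

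Flotillins build raft domains apart from caveolae, and both fell as the caveolins rose. Flot1 changed by -0.55 ± 0.10 and Flot2 by -1.22 ± 0.14 in differentiation, and they rose by 0.90 ± 0.10 and 0.85 ± 0.14 with PPAR gamma siRNA (adjusted p at most 0.000921). In this list of 7 measured raft genes, 3 rose and 3 fell in differentiation (median 0.07), and 4 rose and 2 fell between the siRNAs (median 0.85), where 27.1% and 24.7%, and 19.9% and 16.1%, of all genes did. Erlin1 and Erlin2, raft proteins of the endoplasmic reticulum, rose by 1.10 ± 0.09 and 1.33 ± 0.08 and then fell (-0.90 ± 0.09 and -0.50 ± 0.08), and the glycolipid-anchored Thy1 fell (-3.65 ± 0.27) and then rose (1.67 ± 0.27).

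Of 13 measured receptors, transporters and enzymes studied in connection with adipocyte caveolae, 7 rose and 4 fell in differentiation (median 1.10), and 4 rose and 6 fell with PPAR gamma siRNA (median -0.19). Of all genes 27.1% rose and 24.7% fell in differentiation, and 19.9% rose and 16.1% fell between the siRNAs, so the 4 that fell and then the 4 that rose are not far from those shares. The fatty acid transporter Cd36 went from 3.30 ± 0.15 in preadipocytes to 13.22 ± 0.13 with control siRNA and 11.72 ± 0.02 with PPAR gamma siRNA (SD, n = 3). The glucose transporter Slc2a4 changed by 4.92 ± 0.23 and -1.62 ± 0.23 in the 2 comparisons, and the nitric oxide synthase Nos3, an enzyme held by Cav1 in endothelium, by 1.95 ± 0.15 and -1.25 ± 0.15. The insulin receptor gene Insr rose by 1.59 ± 0.19 and did not pass between the siRNAs (-0.19 ± 0.19, adjusted p = 0.528). Receptors for growth factors and lipoproteins ran the other way: Pdgfrb changed by -2.17 ± 0.12 and 2.16 ± 0.12, and Lrp1 by -0.83 ± 0.16 and 0.89 ± 0.16. Irs1 and the fatty acid transporter Slc27a1 passed in none of the comparisons.

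Clathrin-coated pits are the other main route of uptake at the plasma membrane. Of 19 measured genes of that route, 2 rose and 10 fell in differentiation (median -0.52), and 11 rose and 2 fell with PPAR gamma siRNA (median 0.27). The shares over all genes were 27.1% and 24.7% in differentiation and 19.9% and 16.1% between the siRNAs, so the 2 that fell there are no more than the share of all genes. The dynamin Dnm1 went from 11.65 ± 0.08 to 7.56 ± 0.29 and 9.04 ± 0.04 (SD, n = 3), and the adaptor Dab2 changed by -3.91 ± 0.12 and 0.67 ± 0.12. The AP2 subunit Ap2m1 changed by -1.58 ± 0.09 and 0.60 ± 0.09, the light chain Clta by -0.82 ± 0.08 and 0.25 ± 0.08, and the heavy chain Cltc by -0.56 ± 0.14 and 0.60 ± 0.14. The 2 genes that rose in differentiation were Itsn1 (0.91 ± 0.12) and Fcho2 (0.36 ± 0.12). The 2 that fell between the siRNAs, Epn1 (adjusted p = 0.0493) and Fcho2 (adjusted p = 0.0417), passed narrowly, and that count was 0 or 1 in most of the other settings run.

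**Figure D4:**
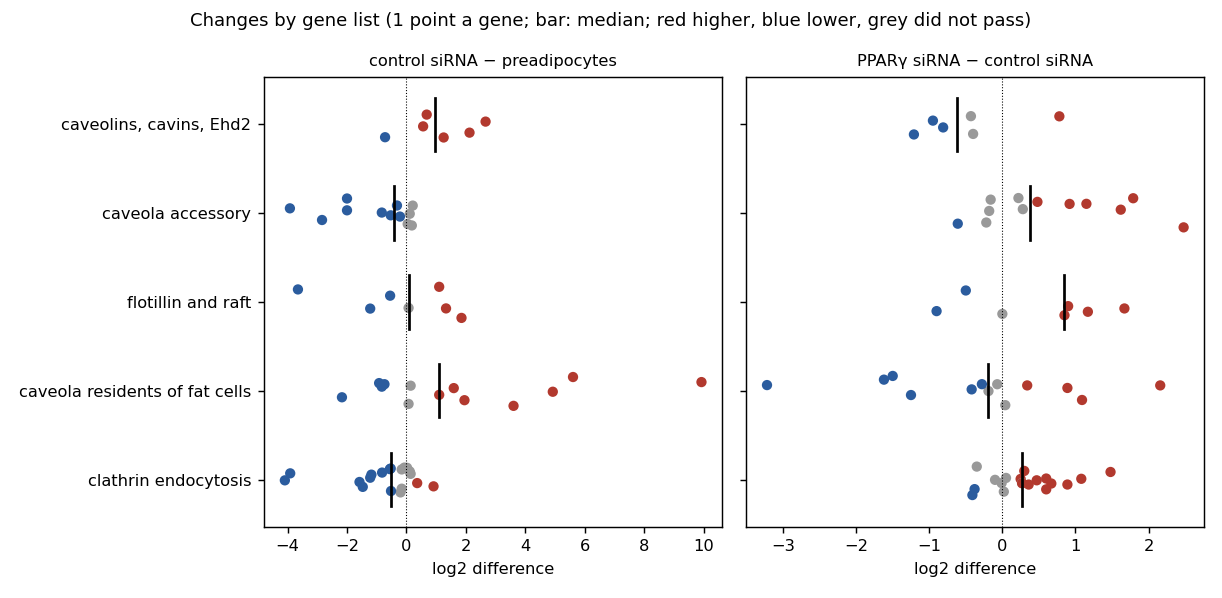
Log2 differences of the caveola coat genes and of the 4 lists (1 point a gene; red called higher, blue called lower, grey did not pass; black bar, median) in differentiation (left) and between the siRNAs (right). The medians of accessory and clathrin genes lie at -0.43 and -0.52 on the left and at 0.38 and 0.27 on the right. Those of the coat genes, by their brightest probe sets, have the opposite sign, at 0.96 and -0.62. Cavin3 among the coat genes has the signs of the accessory and clathrin medians, at -0.72 and 0.78.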

How the data were processed

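RNA from 3T3-L1 cells was hybridised to 9 one-colour arrays, 3 per group, grouped by sample title. The authors deposited log2 summaries per probe set, normalised between arrays (medians 4.82 to 4.89). That the scale is log2 was judged from the values, which run from 2.41 to 14.59. MAS5, RMA and affy 1.16.0 are named, per the submitters' processing notes, with no role or order. Values were used as deposited, without the 64 control probe sets. Of 45037 probe sets tested, 34945 had a single gene symbol in the platform annotation, giving 18193 genes.

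The 3 comparisons came from 1 fit in limma 3.58.1 (R 4.3.3) with a mean per group, two-sided tests and Benjamini-Hochberg adjustment over all probe sets, tested on simulated data. Lists were described by counts and medians, with no test of a list. Named were all members, up to 4 rising and 4 falling genes of a list, further list genes chosen after their values were seen, and the 3 nearest genes of a member. The members, lists and settings were chosen with earlier results of these data known. Alternatives were other scalings, filters, variance models, probe set rules and sample sets, and a replicate block.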

Additional observations from a re-analysis of the deposited data

How the results depend on the processing

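Cav1, Cav2, Cavin2 and Cavin3 kept the direction and the side of the threshold of both their changes, in differentiation and between the siRNAs, in all 19 other settings run, Cav1 from 1.23 to 1.30 and -0.89 to -0.79, Cav2 from 1.79 to 2.19 and -1.06 to -0.91, Cavin2 from 2.58 to 2.71 and -1.26 to -1.10, and Cavin3 from -0.79 to -0.62 and 0.72 to 0.83. The other 2 genes did not. With a gene's probe sets averaged, 3 members were higher and 2 lower in differentiation and 1 was lower in PPAR gamma siRNA against preadipocytes. In that setting Cavin1 changed by -0.73 and -0.79 and Ehd2 by 0.10 and -0.03 in these 2 comparisons. Ehd2 changed by 0.48 in differentiation with quantile normalisation (adjusted p = 0.0843). With the Actb difference as a covariate Cavin1 changed by 0.10 in differentiation and -0.10 against preadipocytes, and Ehd2 by -0.73 between the siRNAs and 0.70 against preadipocytes. Without the 2 arrays of highest Actb difference, Ehd2 differed from preadipocytes by 0.41. The causes were not tested.

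Added after the values were seen, the other Cavin1 and Ehd2 probe sets are given here by falling level. Those of Cavin1 changed by -1.23 and -1.65 in differentiation and by 0.84 and -0.63 between the siRNAs. For PPAR gamma siRNA against preadipocytes they gave -0.39 and -2.27. Those of Ehd2 changed by -0.40, 0.48, -0.29 and 0.15 in differentiation and by 0.36, -0.29, -0.31 and 0 between the siRNAs. Against preadipocytes they gave -0.04, 0.19, -0.60 and 0.15.

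With each array left out in turn, the members higher in differentiation numbered 3 to 5. Cavin1 ranged from 0.56 to 0.78 in differentiation, losing its call without preadipocytes 3 (adjusted p = 0.054) or control siRNA 1 (adjusted p = 0.0507), from -0.59 to -0.17 between the siRNAs, called without PPAR gamma siRNA 3, and from 0.09 to 0.51 against preadipocytes, called without PPAR gamma siRNA 1. Ehd2 ranged from 0.47 to 0.70 in differentiation, from -0.62 to -0.15 between the siRNAs, where the value nearest 0 came without PPAR gamma siRNA 3, and from -0.06 to 0.41 against preadipocytes, and Cavin3 from -0.01 to 0.16 against preadipocytes. The difference of Cavin1 to Cav1 in that comparison ranged from -0.34 to 0.06.

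Arrays of different groups share replicate numbers, and the correlations of their deviations, from -0.188 to 0.173, did not show pairing. A fit with the replicate block left the counts of members called at 5 higher and 1 lower in differentiation, 1 and 3 between the siRNAs and 3 and 0 against preadipocytes, with Cav1 at -0.81 ± 0.08 between the siRNAs. Of 456 list counts under other settings, 428 were within 1.5 times the main count. The number of arrays limits the precision.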

Other observations

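Some genes of the accessory, raft, resident and clathrin lists stood higher with PPAR gamma siRNA than in both other groups: 8 of the 51 measured passed in both comparisons, namely Ap2b1, Ap2s1, Ehd3, Epn2, Flot1, Pacsin3, Rhoq and Stom, and 2 passed as lower in both, Ehd1 and Epn1. Of all 18193 genes, 4.19% passed as higher and 2.38% as lower in both. The pattern was chosen after its values were seen, and the list genes' share was not tested against that of all genes. Stom, which encodes the membrane scaffold protein stomatin, rose in both steps, from 8.08 ± 0.04 in preadipocytes to 9.93 ± 0.14 with control siRNA and 11.11 ± 0.21 with PPAR gamma siRNA (SD, n = 3), and stood 3.02 ± 0.11 above preadipocytes (limma adjusted p = 4.94e-09). The endosomal ATPase Ehd3 was at 7.66 ± 0.07, 6.83 ± 0.22 and 8.62 ± 0.25 in the same order, a difference from preadipocytes of 0.96 ± 0.14 (adjusted p = 0.000239). Pacsin3, a membrane-curving protein, was at 8.02 ± 0.04, 8.20 ± 0.12 and 8.69 ± 0.04, a difference of 0.66 ± 0.09 (adjusted p = 0.000103). The flotillin Flot1 was at 9.56 ± 0.01, 9.01 ± 0.14 and 9.91 ± 0.16, a difference of 0.35 ± 0.10 (adjusted p = 0.0235). Ehd1 was at 9.98 ± 0.03, 9.76 ± 0.05 and 9.14 ± 0.07, a change from preadipocytes of -0.83 ± 0.08 (adjusted p = 8.79e-06).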
